A study of Mus musculus with 10 samples.

Results

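The GDNF-Ret branching genes *Gdnf*, *Ret*, *Gfra1*, *Etv4*, *Etv5*, *Spry1* and *Wnt11* were followed in embryonic mouse kidneys with and without stromal netrin 1. These genes were chosen by name, as the ligand, its receptors and well-known responders of one pathway, with earlier results of these data known and with no threshold on a measured value. They are 7 of 35663 gene entries, each was found as a single entry, and each was above 0 in all 10 libraries. RNA was sequenced from whole kidneys of C57/b6 embryos at E13.5. The 4 wild-type libraries carry no engineered allele by their labels. The 3 *Foxd1GC* control libraries (labelled Foxd1-Cre) carry an allele that makes Cre in stromal progenitors, and keep *Ntn1*. By the authors' account, this allele also brings the loss of a *Foxd1* copy. The 3 *Ntn1SPKO* libraries (labelled Foxd1-Cre; Ntn1c/c) carry the same Cre allele and conditional alleles of *Ntn1*, so that both of the last groups share *Foxd1GC*. Each value is an FPKM, a count of fragments scaled for transcript length and library, so levels of different genes can be compared per length. Nothing in the labels says that replicates came from separate embryos, so p-values measure only the spread between these libraries.

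Kidney branching starts when the metanephric mesenchyme secretes GDNF. On tip cells of the ureteric bud, the epithelium that forms the collecting ducts, GDNF binds the co-receptor *Gfra1* and activates the receptor tyrosine kinase *Ret*. *Ret* signalling maintains the transcription factors *Etv4* and *Etv5* at the tips, induces *Wnt11*, which in turn sustains *Gdnf* in the mesenchyme, and induces *Spry1*, a feedback inhibitor that limits the response. Cre of *Foxd1GC* acts in the stromal lineage, whereas the bud epithelium and the *Gdnf*-producing nephron progenitors are of other lineages.

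*Ntn1*, the deleted gene, was at 27.1 to 46.3 FPKM in wild-type, 24.2 to 51.4 FPKM in *Foxd1GC* control and 10.7 to 16.3 FPKM in *Ntn1SPKO* libraries, with no overlap between mutants and the other libraries. Summed FPKM per library ranged from 795829 to 1002638, and the depth behind the values is not known, so no counting interval is given. Of the markers of kidney compartments, none of 12 ureteric epithelium, 8 cap mesenchyme and 8 stroma genes was under 0.5 FPKM in any library, and all 4 adrenal cortex markers were under it in every library. *Foxd1GC* control replicate 3 stood apart: its summed level of the 12 ureteric epithelium markers was 114.7 FPKM, against 306.9 to 407.0 FPKM in the 9 other libraries. Its 8 skeletal muscle markers summed to 424.8 FPKM, against 35.2 and 97.0 FPKM in the other controls, 53.2 to 103.4 FPKM in wild-type and 15.2 to 35.8 FPKM in *Ntn1SPKO* libraries. Fold changes of the 7 genes and of the pathway lists against *Foxd1GC* control are therefore given with and without it. The other controls also differed from each other. The 8 stroma markers summed to 1528 FPKM in replicate 1 and 877 FPKM in replicate 2, against 1688 FPKM in replicate 3. They summed to 827 to 1071 FPKM in wild-type and 824 to 979 FPKM in *Ntn1SPKO* libraries. Control replicate 1 also held the ureteric sum of 306.9 FPKM. Y-linked transcripts were present in all 3 *Ntn1SPKO* libraries, in *Foxd1GC* control replicate 2 and in wild-type replicate 3, and absent from the others. In whole-kidney RNA, fewer cells of a type and less RNA per cell cannot be told apart.

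*Gdnf* encodes the ligand (ENSMUSG00000022144.4, GRCm38 chr15:7810846-7837575, plus strand). Its level was 21.3, 22.1, 17.6 and 25.5 FPKM in the wild-type libraries, 22.6, 22.1 and 20.8 FPKM in *Foxd1GC* control, and 25.0, 24.8 and 21.3 FPKM in *Ntn1SPKO* kidneys. The lowest and the highest of the 10 values were both wild-type, and the groups overlapped. The difference between *Ntn1SPKO* and *Foxd1GC* control, on the scale of log2(FPKM + 0.1) used for every fold change here, was 0.11 (95% interval −0.09 to 0.32, limma adjusted p = 0.547, exact permutation p = 0.3, two-sided), and 0.08 without *Foxd1GC* control replicate 3. With 3 libraries against 3 that permutation test cannot go below 0.1, and with 3 against 4 not below 0.0286.

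*Ret* encodes the signalling receptor (ENSMUSG00000030110.13, chr6:118151745-118197718, minus strand). It was at 16.0, 16.2, 14.1 and 17.2 FPKM in wild-type libraries. In *Foxd1GC* control kidneys it was at 16.0, 16.1 and 4.09 FPKM, and in *Ntn1SPKO* kidneys at 18.5, 20.9 and 19.8 FPKM. All 3 mutant libraries were thus above all 7 others, and *Foxd1GC* control replicate 3 was far below the rest. Against wild-type kidneys *Ret* differed by a log2 fold change of 0.31 (standard error 0.09, 95% interval 0.11 to 0.51), or 1.24-fold, with an exact permutation p of 0.0286, the smallest possible, and a limma adjusted p of 0.503 over all genes. Against *Foxd1GC* control the log2 fold change was 0.94 (standard error 0.52, interval −0.31 to 2.20, limma adjusted p = 0.466, exact permutation p = 0.1). Without *Foxd1GC* control replicate 3 it was 0.29 (interval 0.10 to 0.48, limma adjusted p = 0.655), close to the value against wild-type kidneys. Neither comparison passed the adjusted threshold.

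*Gfra1* encodes the co-receptor, which the cap mesenchyme also expresses (ENSMUSG00000025089.15, chr19:58235604-58455909, minus strand). It was at 52.2, 49.9, 48.9 and 62.0 FPKM in wild-type kidneys, at 49.5, 54.8 and 33.6 FPKM in *Foxd1GC* control, and at 59.6, 64.4 and 51.1 FPKM in *Ntn1SPKO* kidneys. The mutant range overlapped both others, and *Foxd1GC* control replicate 3 was again the lowest library. The log2 fold change of *Ntn1SPKO* against control was 0.37 (interval −0.10 to 0.83, limma adjusted p = 0.46), and 0.16 without that library (adjusted p = 0.726). Against wild-type kidneys it was 0.13 (limma adjusted p = 0.947).

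*Etv4* and *Etv5* encode related ETS-domain transcription factors that act downstream of *Ret* (Etv4: ENSMUSG00000017724.14, chr11:101769742-101785371; Etv5: ENSMUSG00000013089.15, chr16:22381309-22439719; both minus strand). *Etv4* was at 52.4, 52.2, 52.4 and 63.2 FPKM in wild-type, 54.4, 55.1 and 55.8 FPKM in *Foxd1GC* control and 57.0, 54.6 and 54.4 FPKM in *Ntn1SPKO* kidneys. Apart from wild-type replicate 4, these values lay within 52.2 and 57.0 FPKM. The log2 fold change of *Etv4* was 0.01 (interval −0.12 to 0.13, limma adjusted p = 0.965) against *Foxd1GC* control and 0.01 (interval −0.18 to 0.20, adjusted p = 0.989) against wild-type kidneys, the narrowest interval among the 7 genes in the first comparison. The former was also 0.01 without *Foxd1GC* control replicate 3. Its sign turned under quantile normalization and when single libraries were left out. *Etv5* was at 40.6, 42.3, 39.9 and 47.3 FPKM in wild-type, 38.6, 42.2 and 27.6 FPKM in *Foxd1GC* control and 48.5, 47.6 and 40.4 FPKM in *Ntn1SPKO* kidneys. Unlike *Etv4*, it was lowest in *Foxd1GC* control replicate 3, and the mutants overlapped the other groups. Its log2 fold change against control was 0.35 (interval −0.06 to 0.76, limma adjusted p = 0.45), and 0.17 without that library (adjusted p = 0.693).

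The ratio of *Etv4* to *Etv5* FPKM, chosen after the values were seen, was 1.15 to 1.41 in 9 libraries and 2.02 in *Foxd1GC* control replicate 3. It was 1.24 to 1.33 in wild-type and 1.15 to 1.35 in *Ntn1SPKO* kidneys, so that the groups overlapped.

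*Spry1* encodes the feedback inhibitor (ENSMUSG00000037211.12, chr3:37639947-37644598, plus strand). It was at 31.7, 30.8, 32.4 and 32.8 FPKM in wild-type kidneys, at 29.8, 35.9 and 23.6 FPKM in *Foxd1GC* control, and at 36.9, 37.4 and 32.3 FPKM in *Ntn1SPKO* kidneys. The wild-type libraries were close together (31.9 ± 0.853 FPKM, SD, n = 4), and *Ntn1SPKO* replicate 3 lay within their range. The log2 fold change of *Ntn1SPKO* was 0.15 (interval −0.01 to 0.31, limma adjusted p = 0.887, exact permutation p = 0.0857) against wild-type and 0.27 (interval −0.11 to 0.65, adjusted p = 0.473) against *Foxd1GC* control kidneys. Without *Foxd1GC* control replicate 3 the latter was 0.12, with an adjusted p of 0.791.

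*Wnt11* encodes the tip ligand that feeds back on *Gdnf* (ENSMUSG00000015957.12, chr7:98835112-98855195, plus strand). It was at 19.1, 19.5, 22.1 and 22.9 FPKM in wild-type kidneys, at 23.2, 19.4 and 20.5 FPKM in *Foxd1GC* control, and at 22.1, 23.3 and 19.8 FPKM in *Ntn1SPKO* kidneys. All 3 groups spanned nearly the same range. The log2 fold change against control was 0.05 (interval −0.19 to 0.29, limma adjusted p = 0.829) and 0.03 without *Foxd1GC* control replicate 3, with a sign that turned without *Foxd1GC* control replicate 2 or *Ntn1SPKO* replicate 2, and it was 0.06 (adjusted p = 0.956) against wild-type kidneys.

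**Figure D1:**
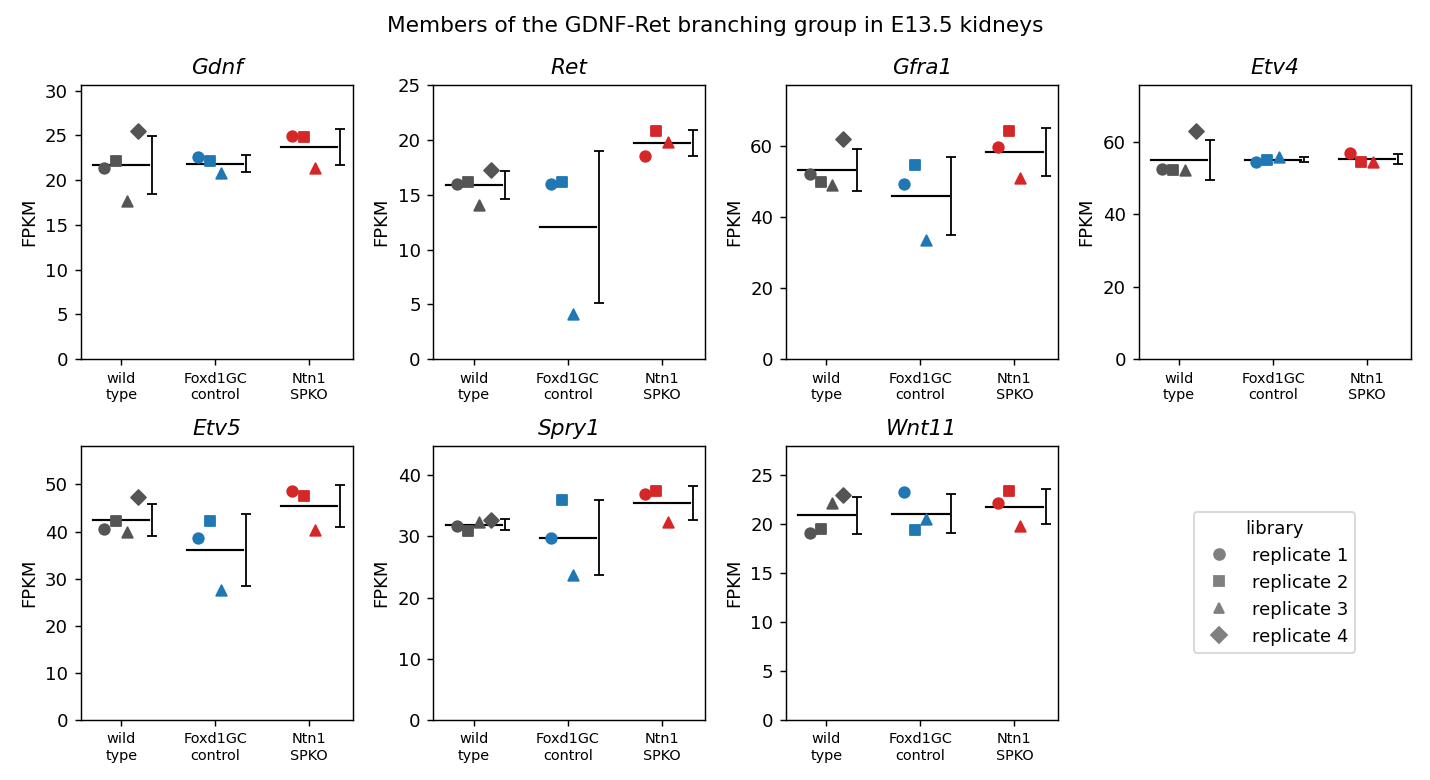
FPKM of each of the 7 genes (vertical axes, from 0) in the wild-type, Foxd1GC control and Ntn1SPKO libraries; points are libraries, marker shapes are replicate numbers, horizontal lines are group means and bars are ± 1 SD. Ret was above all 7 other libraries in the 3 Ntn1SPKO libraries, at 18.5 to 20.9 FPKM, and was at 4.09 FPKM in Foxd1GC control replicate 3.

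Promoter sequences were looked up because *Etv4* and *Etv5* recognise DNA with a GGAA core, and are shown for *Gdnf*, *Wnt11* and *Etv5*. The RefSeq promoter table (GRCm38.p6) held 8 start sites for 5 of the 7 genes, *Gdnf*, *Gfra1*, *Etv5*, *Spry1* and *Wnt11*. The letters CGGAAG, searched on both strands (CTTCCG on the other), were present in the 250 bases before 2 of those 8 starts, 1 of *Gdnf* and 1 of *Wnt11*, and before 13.6% of the 32851 start sites in the table. The stretches shown, 5′ to 3′ on the strand of the gene, are parts of those 250 bases that no GENCODE M21 exon covers, with the matches in capitals. They are the second start site of *Gdnf* (chr15:7813477-7813726, within the gene, intronic), the first of *Wnt11* (chr7:98834862-98835111, just before the gene) and the first of *Etv5* (chr16:22439720-22439820, minus strand, just before the gene), which holds no match.
Gdnf: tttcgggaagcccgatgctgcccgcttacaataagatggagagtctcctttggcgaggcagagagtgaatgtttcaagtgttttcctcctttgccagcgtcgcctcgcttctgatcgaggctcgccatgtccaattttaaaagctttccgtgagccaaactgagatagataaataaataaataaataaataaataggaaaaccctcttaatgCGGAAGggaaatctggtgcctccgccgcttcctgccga
Wnt11: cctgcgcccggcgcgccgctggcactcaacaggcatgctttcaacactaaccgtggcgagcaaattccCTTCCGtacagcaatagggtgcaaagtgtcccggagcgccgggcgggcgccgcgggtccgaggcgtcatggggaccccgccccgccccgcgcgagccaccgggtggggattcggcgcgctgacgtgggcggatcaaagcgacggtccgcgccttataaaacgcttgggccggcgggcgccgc
Etv5: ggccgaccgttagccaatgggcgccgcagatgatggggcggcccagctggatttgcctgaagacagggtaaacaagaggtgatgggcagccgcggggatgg
A match of letters is a description of these windows and does not show binding.

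Ordered by mean FPKM over the 10 libraries, *Etv4* was the highest at 55.1, followed by *Gfra1* at 52.6, *Etv5* at 41.5, *Spry1* at 32.4, *Gdnf* at 22.3, *Wnt11* at 21.2 and *Ret* at 15.9. *Etv4* and *Gfra1* were not separated by their spread, with *Etv4* above *Gfra1* in 8 of 10 libraries, and neither were *Gdnf* and *Wnt11*, with *Gdnf* above in 8. *Gfra1* exceeded *Etv5*, *Etv5* exceeded *Spry1* and *Spry1* exceeded *Gdnf* in all 10 libraries, and *Wnt11* exceeded *Ret* in 9. The co-receptor was thus more abundant per length than *Ret*, by 2.58- to 3.60-fold in 9 libraries and by 8.22-fold in *Foxd1GC* control replicate 3.

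Between *Ntn1SPKO* and *Foxd1GC* control kidneys, the comparison that addresses the loss of stromal *Ntn1* with the Cre allele held in common, none of the 7 genes was called (an adjusted p below 0.1 together with a 2-fold or larger change). Over all 14550 genes tested, 8 were called (0.055%). At an unadjusted limma p under 0.05 again 0 of 7 were higher and 0 lower, against backgrounds of 5.49% higher and 5.17% lower. Groups did not overlap for 1 of 7, *Ret*, which was higher, against 11% of all genes higher and 8.91% lower, a share close to the background. All 7 fold changes had a positive sign, with a median of 0.27 against 0.01 over all genes tested. Under quantile normalization 6 of 7 were positive, *Etv4* being the exception, and likewise with Y-linked transcripts as a covariate, where *Spry1* was. The median was 0.12 without *Foxd1GC* control replicate 3 and 0.42 without *Foxd1GC* control replicate 2, whose removal leaves Y-linked transcripts and group confounded. Without replicate 2, unadjusted p was under 0.05 for 3 of 7, *Gfra1*, *Etv5* and *Spry1*, all higher, where 12.3% of all genes were higher at that threshold, up from 5.49%. Without replicate 3 it was under 0.05 for 1 of 7, *Ret*, also higher, against 3.69% of all genes. None of the 7 was called in either fit. In the same comparison all 12 ureteric epithelium markers had a positive sign (median 0.69, and 0.16 without replicate 3) and all 8 skeletal muscle markers a negative sign (median −2.60, and −1.56 without it). Of 8 stroma markers 7 had a negative and 1 a positive sign (median −0.34, and −0.21 without replicate 3). All 6 erythroid markers had a negative sign (median −0.77, and −0.56 without that library). The part of any of these in the values of the 7 genes was not tested.

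*Ntn1SPKO* and wild-type kidneys differ in *Ntn1* and in the Cre allele, with its loss of a *Foxd1* copy. Between them none of the 7 genes was called, against 7 of 14432 genes (0.0485%). Unadjusted p was under 0.05 for 1 of 7, *Ret*, in the higher direction (background 2.45%) and for 0 in the lower direction (background 3.31%). The groups did not overlap for *Ret* alone among the 7 (background 3.56% higher and 3.54% lower). The median log2 fold change was 0.13, against 0.00 over all genes. The ureteric epithelium markers had a median of −0.03 and the skeletal muscle markers of −1.79. With Y-linked transcripts as a covariate, which raised the genes called in all from 7 to 187, limma adjusted p was 0.0223 for *Ret* (log2 fold change 0.48) and 0.095 for *Gdnf* (0.42), both below a 2-fold change. In that fit 3249 of all 14432 genes had a limma adjusted p under 0.1, so that 2 of 7 is near the share of all genes. This comparison shares its mutant libraries with the one against *Foxd1GC* control, so the values of *Ret* in both are not independent.

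*Foxd1GC* control and wild-type kidneys differ in the Cre allele, with its loss of a *Foxd1* copy. Between them none of the 7 genes was called, against 1 of 14594 (0.00685%). Unadjusted p was under 0.05 for 0 of 7 in either direction (background 3.84% higher and 3.23% lower), and groups overlapped for all 7 (background 4.04% higher and 4.04% lower). Of the 7, 3 had a positive sign and the median was −0.12 (all genes −0.01). *Ret* had the largest difference, −0.63 (interval −1.67 to 0.41, limma adjusted p = 0.686), and without *Foxd1GC* control replicate 3 it was 0.02 (interval −0.22 to 0.26). Without that library the median of the 7 was 0.02. The ureteric epithelium markers had a median of −0.64 (−0.11 without it). All 6 erythroid markers had an unadjusted p under 0.05 in the higher direction (median 1.04), and the part of blood in the values was not tested.

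**Figure D2:**
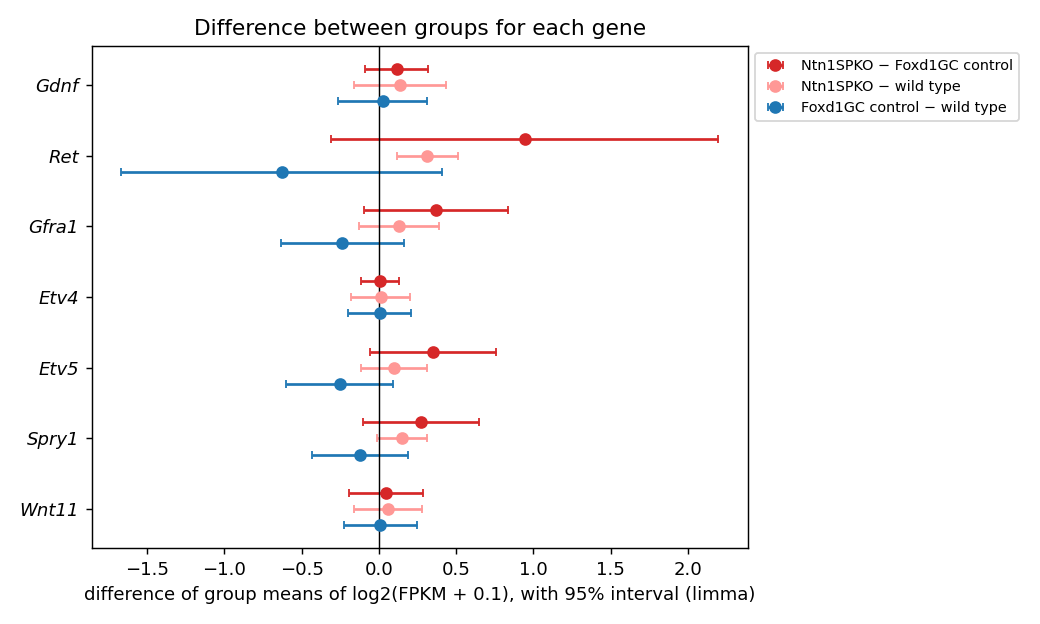
Difference of group means of log2(FPKM + 0.1) for each gene (horizontal axis; bars are 95% intervals of limma) in the 3 comparisons. Intervals of Etv4 and Wnt11 lie close to 0 in each comparison, and the wide intervals of Ret against or from Foxd1GC control include its replicate 3.

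In *Foxd1GC* control replicate 3 the 7 genes did not move together. Relative to the mean of the 9 other libraries, *Ret* was at 23.8% of their FPKM, *Gfra1* at 61.4%, *Etv5* at 64.1% and *Spry1* at 70.8%, each below all 9. *Gdnf* was at 92.4%, *Wnt11* at 96.3% and *Etv4* at 101%, each within the range of the 9 others. Of the ureteric epithelium markers, 11 are shown singly, and they were between 22.4% for *Cdh1* and 66.7% for *Wnt7b*, all 11 below all 9 other libraries. *Calb1*, which encodes the calcium-binding protein calbindin, was at 25.7%, and *Cdh1* encodes E-cadherin, with values similar to that of *Ret*. The difference of this library from the others is a description of 1 library, with no test. Its skeletal muscle and ureteric marker levels are given above, and their part in the values was not tested.

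**Figure D3:**
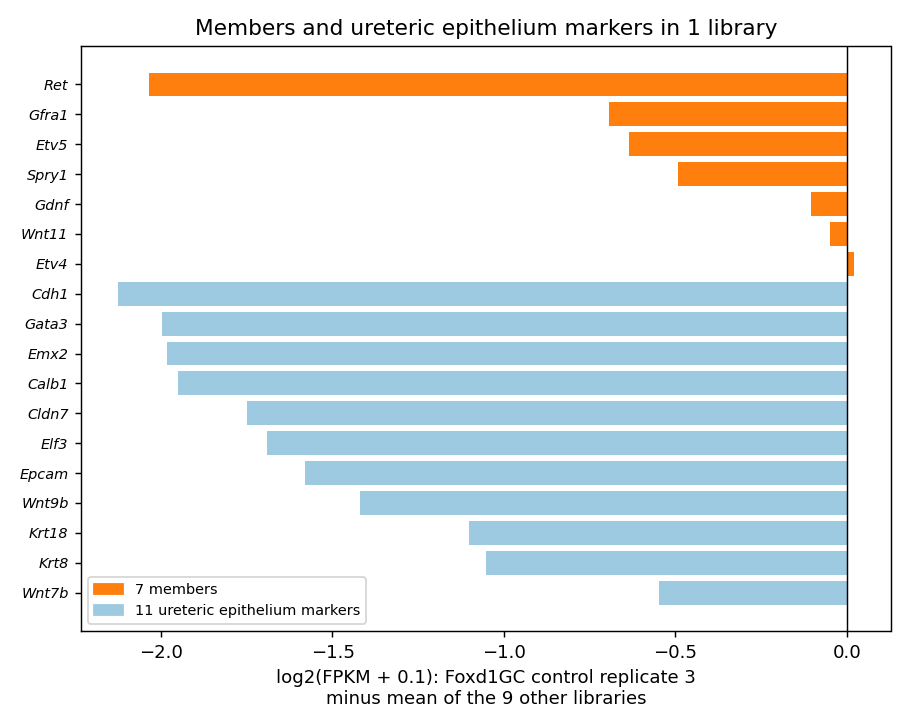
Difference in log2(FPKM + 0.1) between Foxd1GC control replicate 3 and the mean of the 9 other libraries (horizontal axis) for the 7 genes (orange) and 11 ureteric epithelium markers (blue). Ret lies among the markers at −2.04, whereas Etv4, at 0.02, and Wnt11, at −0.05, lie near 0.

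Each gene was also set against markers of the same library. Its log2 level was taken minus the median log2 level of the 12 ureteric epithelium markers (for *Gdnf*, of 8 cap mesenchyme markers). The ureteric list was lower in *Foxd1GC* control replicate 3 (median log2 level 3.21) than in the other libraries (4.79 to 5.11). In that replicate *Etv4*, *Wnt11* and *Spry1* were at 101%, 96.3% and 70.8% of the mean of the other libraries. The ureteric markers shown singly were at 22.4% to 66.7%. *Etv4*, *Wnt11* and *Spry1* did not follow the markers there. *Gfra1* and *Etv5*, at 61.4% and 64.1%, were above every marker shown but *Wnt7b*. For all of these genes the scale is no correction for the amount of bud epithelium. On this relative scale *Ret* was −0.91, −0.76, −1.28 and −0.78 in wild-type, −0.85, −1.01 and −1.14 in *Foxd1GC* control, and −0.58, −0.49 and −0.51 in *Ntn1SPKO* kidneys. *Foxd1GC* control replicate 3 was here within the range of the wild-type libraries, and the 3 mutant libraries were above all 7 others. The difference was 0.41 against wild-type (exact permutation p = 0.0286) and 0.47 against *Foxd1GC* control kidneys (exact permutation p = 0.1), both the smallest p these designs allow, in a family of 21 such tests with no adjustment. Without *Foxd1GC* control replicate 3 the latter was 0.40. How many of all genes separate on this scale was not computed. As FPKM, *Spry1* overlapped between wild-type and *Ntn1SPKO* kidneys. Relative *Spry1* was 0.07, 0.16, −0.09 and 0.15 in wild-type and 0.41, 0.35 and 0.20 in *Ntn1SPKO* kidneys, without overlap (difference 0.24, exact permutation p = 0.0286). Against *Foxd1GC* control its difference was −0.20 (exact permutation p = 1), and 0.22 without replicate 3, in which relative *Spry1* was 1.36.

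Relative *Gfra1*, *Etv4*, *Etv5* and *Wnt11* overlapped between groups in all 3 comparisons, with exact permutation p from 0.143 to 1. Against *Foxd1GC* control, the differences of these 4 genes were −0.47 to −0.10 and turned positive, 0.12 to 0.27, without replicate 3. In that library they stood above their level in the other controls, with *Etv4* at 2.59 against 0.91 and 0.76, and *Wnt11* at 1.15 against −0.31 and −0.74. *Gdnf* relative to the cap mesenchyme differed by 0.12 between *Ntn1SPKO* and *Foxd1GC* control (exact permutation p = 0.4) and by 0.02 between *Ntn1SPKO* and wild-type kidneys (p = 0.943), smaller than the spread between wild-type libraries (SD 0.24, n = 4).

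**Figure D4:**
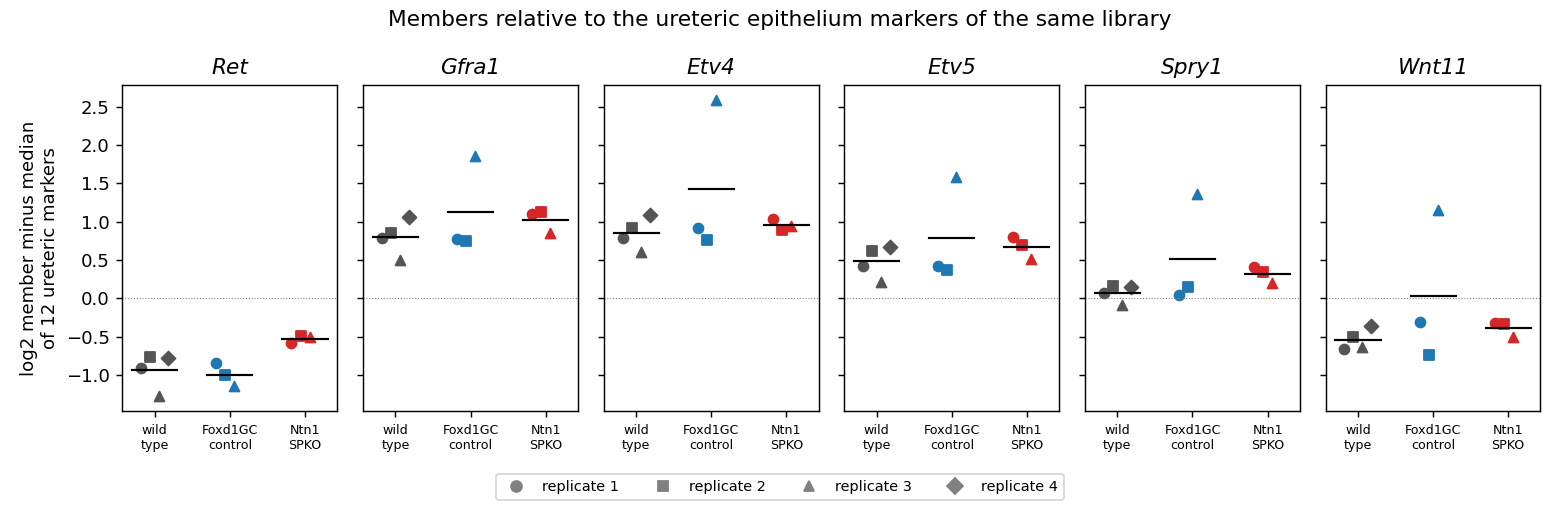
Log2 level of 6 genes minus the median log2 level of 12 ureteric epithelium markers of the same library (vertical axis); points are libraries, marker shapes are replicate numbers and lines are group means. Ret is higher in the 3 Ntn1SPKO libraries (−0.58 to −0.49) than in the other 7 (−1.28 to −0.76), and Foxd1GC control replicate 3 stands out for each of the other 5 genes.

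Across the 10 libraries, *Ret*, *Gfra1*, *Etv5* and *Spry1* varied together, with Pearson r of log2 levels from 0.87 for *Ret* and *Spry1* to 0.98 for *Gfra1* and *Etv5*. These points share their libraries and groups and include *Foxd1GC* control replicate 3. Without it the 6 pairs had r from 0.53 for *Ret* and *Spry1* to 0.93 for *Gfra1* and *Etv5* over 9 libraries. *Etv4* had r of −0.01 with *Ret* and 0.25 with *Etv5* over 10 libraries, and 0.29 and 0.64 over 9. *Gdnf* had r of 0.37 with *Ret* over 10 and 0.66 over 9 libraries. Over 9 libraries it had r of 0.79 with *Gfra1*, 0.76 with *Etv5* and 0.41 with *Spry1*. Its values with *Ret*, *Gfra1* and *Etv5* thus lay within the range of the 6 pairs, and that with *Spry1* below it. *Etv4* and *Gfra1* had r of 0.68 over 9 libraries, also within that range. *Wnt11* had r from 0.18 to 0.45 with the other 6 genes over 10, and from 0.17 to 0.47 over 9 libraries.

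**Figure D5:**
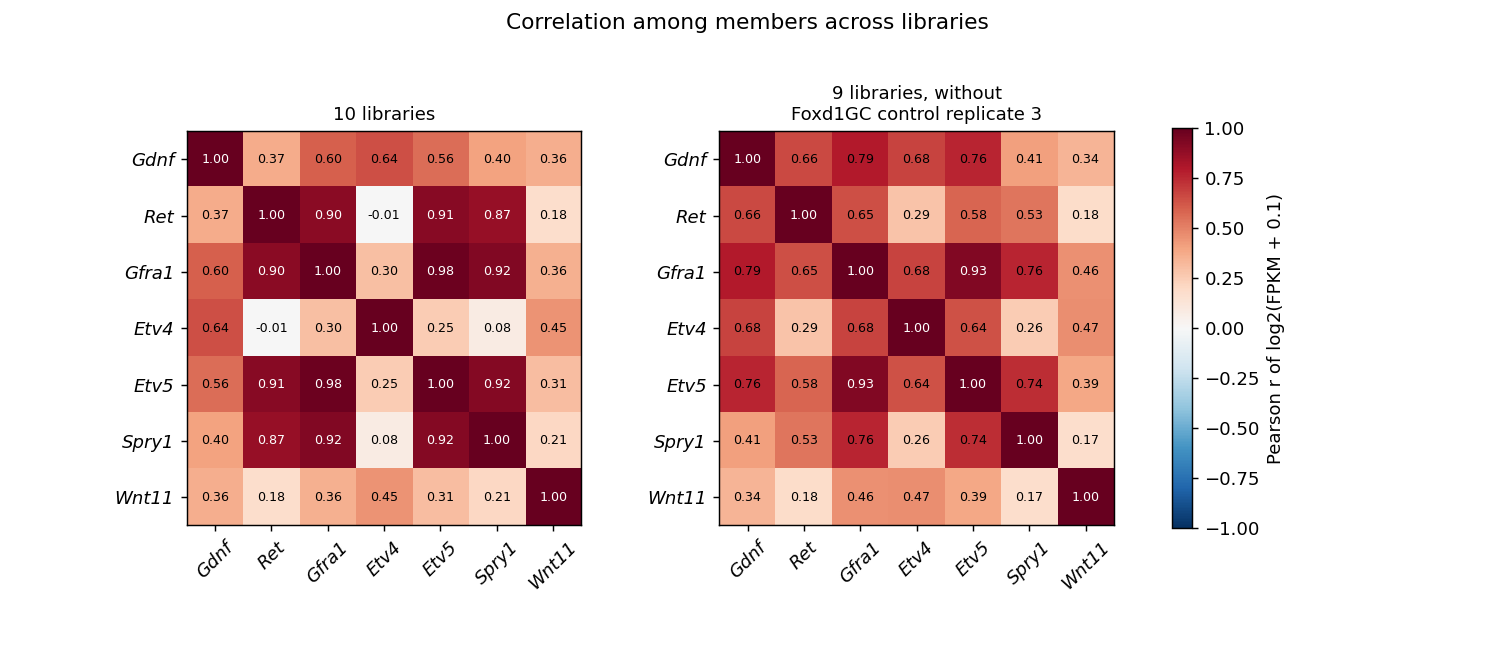
Pearson r of log2(FPKM + 0.1) between each pair of the 7 genes (colour and printed value), over 10 libraries (left) and over 9 without Foxd1GC control replicate 3 (right). The block of Ret, Gfra1, Etv5 and Spry1 is 0.87 to 0.98 on the left and 0.53 to 0.93 on the right, where Gdnf has 0.66 with Ret, 0.79 with Gfra1 and 0.76 with Etv5.

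The genes most like each member across the 10 libraries were searched among 13162 other genes averaging 1 FPKM or more, and each r is the highest of that many. For *Ret* they were *Ros1* (r = 0.99), an orphan receptor tyrosine kinase, *St14* (0.98), an epithelial membrane serine protease, and *Tbc1d32* (0.98). Without *Foxd1GC* control replicate 3 these values were 0.79, 0.68 and 0.95. For *Gfra1* they were *Ccnyl1*, *Pgap1* and *Arhgef19* (0.96, 0.96 and 0.95, and 0.91, 0.87 and 0.84 without that library). For *Etv5* they were *Hells*, *Zbtb14* and *Pgm2l1* (0.97 each, and 0.92, 0.90 and 0.93 without it), and for *Spry1* *Hoxb8*, *Csnk2a1* and *Tmem150c* (0.96, 0.94 and 0.94, and 0.87, 0.81 and 0.89 without it). For *Gdnf* they were *Mast3*, *Slc35e2* and *Zfhx2* (0.96, 0.96 and 0.95), for *Etv4* *Marchf9*, *Pold2* and *Trmt2a* (0.91, 0.91 and 0.88), and for *Wnt11* *Gng13*, *Atp6v1c1* and *Pcmtd2* (0.95, 0.89 and 0.88). For these last 3 members the values over 9 libraries were within 0.02 of those over 10.

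Other genes of the pathway were taken from 7 lists written from general knowledge, and none was called by limma in any of the 3 comparisons. Between *Ntn1SPKO* and *Foxd1GC* control, unadjusted p was under 0.05 for 4 higher and 3 lower of 71 tested, near the backgrounds of 5.49% and 5.17% of all genes, so the genes named for it here are a description. Without *Foxd1GC* control replicate 3 it was under 0.05 for 1 higher, *Ctnnb1*, and 1 lower, *Gfra2*, of 70 tested (backgrounds 3.69% and 3.53%). Between *Ntn1SPKO* and wild-type kidneys it was under 0.05 for 5 higher and 3 lower of 70 (backgrounds 2.45% and 3.31%), and between *Foxd1GC* control and wild-type kidneys for 1 higher and 5 lower of 71 (backgrounds 3.84% and 3.23%). Among other GDNF family ligands and receptors, 6 of 8 were tested between *Ntn1SPKO* and *Foxd1GC* control kidneys, 1 with a positive and 5 with a negative sign (median −0.54, against 0.01 over all genes). The median was −0.48, with the same tally, without *Foxd1GC* control replicate 3. Unadjusted p was under 0.05 for 2, *Nrtn* and *Gfra2*, both lower, against 5.17% of all genes, and without that library for *Gfra2* alone. *Nrtn*, the neurturin ligand, was at 1.99, 1.74 and 2.40 FPKM in *Foxd1GC* control, at 0.963, 1.61 and 1.12 FPKM in *Ntn1SPKO*, and at 1.26, 1.03, 1.34 and 1.55 FPKM in wild-type kidneys. The controls were thus above both other groups, and the log2 fold change of *Ntn1SPKO* was −0.71 (limma adjusted p = 0.447, and −0.59 without replicate 3) against control and −0.09 (adjusted p = 0.962) against wild-type kidneys. *Artn*, the artemin ligand, was low in every library, at 0.326 to 0.813 FPKM, and its log2 fold change against control was −0.62 (adjusted p = 0.479). It averaged under 0.5 FPKM without *Foxd1GC* control replicate 3 and was then not tested.

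Of 16 *Ret* adaptors and kinases, 9 had a positive and 7 a negative sign between *Ntn1SPKO* and *Foxd1GC* control kidneys (median 0.04), and 12 and 4 without *Foxd1GC* control replicate 3 (median again 0.04). Unadjusted p was under 0.05 for *Gab1*, a docking protein for Grb2, which was lower (22.8 ± 0.586 against 29.3 ± 4.29 FPKM, SD, n = 3 and 3, log2 fold change −0.35, limma adjusted p = 0.447). It was also under 0.05 for *Sos1*, a Ras activator, which was higher (17.4 ± 1.13 against 14.6 ± 1.42 FPKM, n = 3 and 3, log2 fold change 0.26, limma adjusted p = 0.447). The fold changes were −0.30 and 0.18 without *Foxd1GC* control replicate 3, and neither then had an unadjusted p under 0.05. Both overlapped wild-type libraries.

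Of 13 mesenchymal inducers of *Gdnf*, 11 had a positive sign (median 0.18), and 12 without *Foxd1GC* control replicate 3 (median 0.10). Unadjusted p was under 0.05 for 2, *Six4* and *Sall1*, both higher, against 5.49% of all genes, and for neither without that library. *Six4*, a homeodomain factor acting with *Eya1*, was at 8.03, 7.70 and 7.04 FPKM in *Ntn1SPKO* and at 6.34, 6.77 and 5.06 FPKM in *Foxd1GC* control kidneys (log2 fold change 0.33, limma adjusted p = 0.447, and 0.21 without replicate 3). Wild-type libraries were at 5.99 to 7.39 FPKM, overlapping both. Against wild-type kidneys 12 of the 13 inducers had a positive sign (median 0.12), and unadjusted p was under 0.05 for *Eya1* alone.

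Of 7 tested of 8 listed restraints of the pathway with the Bmp antagonist *Grem1*, 5 had a positive sign against control (median 0.02, and 0.01 with the same tally without *Foxd1GC* control replicate 3) and none had an unadjusted p under 0.05. *Foxc2*, a forkhead factor that limits the *Gdnf* domain, was at 40.8 to 41.8 FPKM in *Ntn1SPKO*, 35.4 to 40.7 FPKM in *Foxd1GC* control and 34.5 to 39.2 FPKM in wild-type kidneys. The mutants were above both other groups by a narrow margin, with log2 fold changes of 0.10 (limma adjusted p = 0.51, and 0.05 without replicate 3) and 0.16 (adjusted p = 0.837).

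Of 10 regulators of *Ret* and stromal retinoid genes, 9 had a positive sign against control, with a median of 0.65. All 10 did without *Foxd1GC* control replicate 3, with a median of 0.12. Against wild-type kidneys 6 had a positive and 4 a negative sign (median 0.03). There, unadjusted limma p was under 0.05 for 0 higher and 3 lower, against 2.45% and 3.31% of all genes. Groups did not overlap for 0 higher and 3 lower, against 3.56% and 3.54% of all genes. *Gata3*, a factor needed for *Ret* expression in the duct, was at 29.5, 36.2 and 9.10 FPKM in *Foxd1GC* control, 36.3, 36.3 and 45.4 FPKM in *Ntn1SPKO* and 35.1 to 38.3 FPKM in wild-type libraries. Its log2 fold change of 0.87 (limma adjusted p = 0.473) against control was 0.26 (adjusted p = 0.677) without the low library, and against wild-type kidneys it was 0.08 (adjusted p = 0.947). *Ctnnb1*, which encodes beta-catenin, was at 588.1 ± 5.22 FPKM in *Ntn1SPKO* against 535.9 ± 14.6 FPKM in *Foxd1GC* control kidneys (SD, n = 3 and 3, log2 fold change 0.13, limma adjusted p = 0.447, and 0.11 without replicate 3), within the wild-type range of 496.8 to 611.5 FPKM.

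Of 13 other *Ret*-responsive and bud tip genes, 10 had a positive sign against control (median 0.10), and 11 without *Foxd1GC* control replicate 3 (median 0.08), and none had an unadjusted p under 0.05. *Slco4c1*, an organic anion transporter, was at 3.54, 3.69 and 1.24 FPKM in *Foxd1GC* control and at 4.29, 5.56 and 4.25 FPKM in *Ntn1SPKO* kidneys (log2 fold change 0.85, limma adjusted p = 0.45). *Ros1* was at 4.61, 5.14 and 1.31 FPKM and at 5.87, 5.86 and 5.19 FPKM (log2 fold change 0.81, adjusted p = 0.484). Both were lowest in *Foxd1GC* control replicate 3, and without it their log2 fold changes were 0.36 (adjusted p = 0.673) and 0.21 (adjusted p = 0.677). Against wild-type kidneys their log2 fold changes were 0.18 (adjusted p = 0.947) and 0.16 (adjusted p = 0.947). Of the 7 listed FGF ligands and receptors, 4 had a positive sign (median 0.11), and 6 without *Foxd1GC* control replicate 3 (median 0.13). None had an unadjusted p under 0.05.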

How the data were processed

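RNA-seq of whole E13.5 kidneys covered 4 wild-type, 3 *Foxd1GC* control and 3 *Ntn1SPKO* libraries. The authors quantified reads with Salmon (version not given in the sources used here) against coding sequences of GRCm38, and bcl2fastq 2.17.1.14 is named in the submitters' processing notes. The authors deposited FPKM for 35663 gene entries, not counts, and no step before them was repeated. Depth is unknown, so precision is given by the spread between libraries.

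FPKM were used as deposited. Median-of-ratios factors over 16550 genes were 1.00 in every library, so the values were already on that common scale. Limma 3.58.1 (R 4.3.3) was applied to log2(FPKM + 0.1) of every gene averaging 0.5 FPKM or more in the libraries compared (eBayes with an intensity trend, only the 2 groups compared, Benjamini-Hochberg adjustment over all genes tested). All 7 members passed this filter in each comparison. A call required an adjusted p below 0.1 and a 2-fold or larger change. Exact permutation tests of group means, two-sided, were run per member. On log2(FPKM + 0.1), fold changes of low genes are understated. The fit was tested on simulated data with wild-type spreads, no outlying library and changes larger than any of the 7 members. It does not speak to changes as small as theirs. Values of 1 listed gene are not reported here. Deviations from group means correlated between −0.04 and 0.08 for same-numbered libraries and between −0.11 and 0.06 for differently numbered ones. The ranges overlapped, and whether replicate numbers pair the libraries is not known.

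The members and lists were chosen with earlier results of these data known. Named genes were the 7 members, pathway genes called in any comparison (there were none), for each list the 2 genes with the largest change against *Foxd1GC* control among those whose groups did not overlap, and for each member the 3 genes with the highest r. Genes named for an unadjusted p outside this rule (*Gfra2*, *Sall1* and *Eya1*) were chosen after their values were seen. Coordinates are those of GENCODE M21 (GRCm38), 1-based. Alternatives were other pseudocounts, filters and scalings, no intensity trend, a joint fit of every library, a replicate block, Y-linked transcripts as a covariate, and leaving out each library.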

Additional observations from a re-analysis of the deposited data

Results flagged for a closer look

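*Etv4* in wild-type replicate 4 was at 63.2 FPKM, against 52.2 to 52.4 FPKM in the 3 other wild-type libraries, a gap larger than Dixon's 95% limit for 4 values. Of 14 sets of 4 wild-type values examined (each of the 7 genes as FPKM and relative to its marker list), this was the 1 past the limit, and chance alone gives about 1 in 20.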

How the results depend on the processing

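No member was called under any alternative run. With limma, the genes called over the whole table moved more: between *Ntn1SPKO* and *Foxd1GC* control from 8 to 21 with no filter, 4 with the Y-linked covariate and 3 to 78 on leaving out a library. Between *Ntn1SPKO* and wild-type kidneys they moved from 7 to 2 with a pseudocount of 1, 18 with no filter, 12 with no trend, 187 with the Y-linked covariate, and 1 to 20 on leaving out a library. Between *Foxd1GC* control and wild-type kidneys they moved from 1 to 2 with a pseudocount of 1 or 0.01, 9 with no filter, 4 with no trend and 3 to 20 on leaving out a library. With all 10 libraries in one fit limma called 0 genes in each comparison, with an unadjusted p under 0.05 for 833 higher and 765 lower, 303 and 333, and 715 and 781 genes. The cause of these changes was not tested.

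Of 371 member fold changes under alternatives, 347 kept their sign and their side of the threshold. *Ret* and *Gdnf* against wild-type passed an adjusted p under 0.1 with the Y-linked covariate (0.48 and 0.42), as did 3249 of all 14432 genes. Signs turned for *Etv4* with quantile normalization (−0.025) and, with the Y-linked covariate, for *Spry1* (−0.019) in *Ntn1SPKO* against *Foxd1GC* control and for *Wnt11* (−0.025) in *Ntn1SPKO* against wild-type kidneys. On leaving out a library, ranges that crossed 0 were, against *Foxd1GC* control, −0.016 to 0.018 for *Etv4* and −0.0081 to 0.12 for *Wnt11*. Against wild-type kidneys, *Etv4* of *Ntn1SPKO* ranged from −0.012 to 0.079. For *Foxd1GC* control against wild-type they were −0.070 to 0.11 for *Gdnf*, −0.96 to 0.019 for *Ret*, −0.018 to 0.074 for *Etv4*, −0.27 to 0.035 for *Spry1* and −0.063 to 0.067 for *Wnt11*. Relative to the marker lists, ranges that crossed 0 between *Ntn1SPKO* and *Foxd1GC* control were −0.29 to 0.26 for *Gfra1*, −0.80 to 0.12 for *Etv4*, −0.33 to 0.27 for *Etv5*, −0.44 to 0.22 for *Spry1* and −0.81 to 0.14 for *Wnt11*, all positive only without *Foxd1GC* control replicate 3. They were −0.094 to 0.080 for *Gdnf* between *Ntn1SPKO* and wild-type, and, between *Foxd1GC* control and wild-type, −0.18 to 0.0076 for *Ret*, −0.038 to 0.52 for *Gfra1*, −0.015 to 0.90 for *Etv4* and −0.085 to 0.52 for *Etv5*.

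The replicate block, fitted although pairing by number is not known, gave 8, 7 and 1 genes and 0 members called, the same counts as without it. The correlation it estimated within replicate numbers was 0.06, 0.008 and 0.16, in the same order. With *Ntn1SPKO* kidneys all holding Y-linked transcripts, the covariate rests on 1 library of each other group, so Y-linked transcripts and group are nearly confounded. The 3 to 4 libraries in a group limit precision: the interval of *Ret* against *Foxd1GC* control spanned −0.31 to 2.20.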
